A study of Homo sapiens with 2 samples.

Results

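NRF-1 peaks at the promoters of protein-coding genes that were called in control cells and had no counterpart after AATF depletion were examined in the human glioblastoma line U251, an established cell line. The siControl group received a control siRNA by transfection and the siAATF group received siRNA oligonucleotide #1 against AATF, and no other allele or agent is named for either group. ChIP-seq libraries were made with an NRF-1 antibody by ChIPmentation, in which a transposase adds the sequencing adapters on the antibody-bound chromatin, and 1 peak list per condition was analysed. Duplicate ChIPmentation is mentioned by the labels, and whether the duplicates were pooled in these lists is not given in the sources used here. The sample labels name U251 whereas the design text of the series names U138, and the labels were followed. A siControl-only promoter peak was a siControl peak on chromosomes 1 to 22 and X that overlapped no siAATF peak by even 1 base and that overlapped the 1 kb on either side of a coding start, meaning the start of a protein-coding transcript of a protein-coding gene in GENCODE release 44 lifted to hg19. The members were thus chosen by the presence and absence of peak calls. There were 451 such peaks among the 18014 siControl peaks, or 3.86% of the 11690 siControl peaks at coding promoters. They lay at the promoters of 485 genes, 2.45% of the 19756 coding genes with an annotated start. With 1 list per condition there were no replicates, so no test between conditions was made, and the intervals below are exact 95% binomial intervals that cover counting error only.

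The transcription factor NRF-1 binds as a dimer to a GC-rich palindrome near the start sites of nuclear genes, many of which encode subunits of the respiratory chain, mitochondrial ribosomal proteins and factors that copy mitochondrial DNA. Its palindrome holds CpG steps, and most of its known sites lie in CpG islands that are free of methylation. AATF is a nuclear and nucleolar cofactor that acts with transcription factors and in ribosome assembly.

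The DNA under the strongest of these peaks is shown first, because most of the members were weak and these carry the highest significance. The 7 peaks with a −log10 q of 5 or more gave the stretches below, read from the hg19 plus strand and free of untranslated exons, with capitals marking the Sp1 box, GGGCGG or its reverse complement.
AC104057.1, chr7:65112399-65112698: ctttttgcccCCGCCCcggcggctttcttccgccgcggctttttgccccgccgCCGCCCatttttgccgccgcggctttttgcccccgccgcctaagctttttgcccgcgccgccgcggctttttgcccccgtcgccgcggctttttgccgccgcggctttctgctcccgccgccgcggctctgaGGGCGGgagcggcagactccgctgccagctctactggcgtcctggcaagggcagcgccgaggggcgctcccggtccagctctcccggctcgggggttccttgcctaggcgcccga
CYP2R1, chr11:14913262-14913561: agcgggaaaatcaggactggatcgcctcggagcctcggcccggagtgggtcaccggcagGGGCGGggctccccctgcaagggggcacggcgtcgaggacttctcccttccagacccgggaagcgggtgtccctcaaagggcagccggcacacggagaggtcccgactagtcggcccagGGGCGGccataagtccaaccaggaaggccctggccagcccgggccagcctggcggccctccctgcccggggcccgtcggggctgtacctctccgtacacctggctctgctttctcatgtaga
EBF1, chr5:158526274-158526486: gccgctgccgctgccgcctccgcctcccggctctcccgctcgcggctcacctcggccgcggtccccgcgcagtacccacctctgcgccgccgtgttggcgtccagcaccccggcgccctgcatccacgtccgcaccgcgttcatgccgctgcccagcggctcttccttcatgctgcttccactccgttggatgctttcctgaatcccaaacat
TTC29, chr4:147867035-147867127: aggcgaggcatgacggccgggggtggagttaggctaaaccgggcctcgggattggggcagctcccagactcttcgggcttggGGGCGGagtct
COL12A1, chr6:75915770-75916014: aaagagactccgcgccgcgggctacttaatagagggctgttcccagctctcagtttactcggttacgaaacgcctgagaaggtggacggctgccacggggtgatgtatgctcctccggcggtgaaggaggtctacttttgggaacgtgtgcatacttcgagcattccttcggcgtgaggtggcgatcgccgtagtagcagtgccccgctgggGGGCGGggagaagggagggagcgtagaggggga
LAMA2, chr6:129204184-129204282: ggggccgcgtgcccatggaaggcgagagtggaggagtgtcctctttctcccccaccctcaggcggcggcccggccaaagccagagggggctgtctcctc
CARS2, chr13:111329278-111329492: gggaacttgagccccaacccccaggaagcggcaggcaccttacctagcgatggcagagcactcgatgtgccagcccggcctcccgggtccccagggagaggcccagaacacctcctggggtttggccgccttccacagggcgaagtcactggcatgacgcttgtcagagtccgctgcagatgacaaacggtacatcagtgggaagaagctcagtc
The stretch at AC104057.1 was 72.7% GC with 42 CpG steps and 3 Sp1 boxes, and that at CYP2R1 was 70.0% GC with 23 CpG steps and 2 boxes. CARS2 was the least rich in CpG steps for its length, with 10 in 215 bases and 0 boxes.

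Stretches of 4 weaker peaks, again free of untranslated exons, are shown for what their genes are known for. The genes are that of the mitochondrial inner membrane protein MPV17, the glioma receptor gene PDGFRA, and the progenitor markers NES and CSPG4. Capitals again mark the Sp1 box, and in PDGFRA 2 boxes overlap. The whole peaks at MPV17 and, above, at LAMA2 held a box that lies outside the stretch shown.
MPV17, chr2:27545783-27545918: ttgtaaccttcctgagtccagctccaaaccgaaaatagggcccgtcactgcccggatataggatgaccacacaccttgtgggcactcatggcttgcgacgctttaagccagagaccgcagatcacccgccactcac
PDGFRA, chr4:55096277-55096488: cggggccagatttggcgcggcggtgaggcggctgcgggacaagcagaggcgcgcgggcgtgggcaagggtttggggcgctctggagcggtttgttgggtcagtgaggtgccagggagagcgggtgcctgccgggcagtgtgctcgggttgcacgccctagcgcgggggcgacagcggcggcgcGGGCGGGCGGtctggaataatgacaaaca
NES, chr1:156647200-156647323: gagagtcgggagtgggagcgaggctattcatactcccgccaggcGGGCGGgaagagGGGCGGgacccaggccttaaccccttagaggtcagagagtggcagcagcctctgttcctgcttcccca
CSPG4, chr15:76005190-76005317: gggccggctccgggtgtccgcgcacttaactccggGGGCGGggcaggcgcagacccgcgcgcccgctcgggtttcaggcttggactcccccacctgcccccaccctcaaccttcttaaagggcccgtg
None of these 4 genes had a promoter peak in the siAATF list.

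The NRF-1 core was searched as a 10-base palindrome whose inner letters are CGCATGCG, with G before and C after them. The exact core was found in 1 of the 451 peaks, at SLC7A10, and 13 more peaks held it with 1 mismatch. These windows of 30 bases are shown because they are the members whose sequence comes closest to the known site, with the matched bases in capitals on the hg19 plus strand.
SLC7A10, chr19:33716718-33716747: ccacaggcggGCGCATGCGCtggctccggg
CYP2R1, chr11:14913221-14913250: gagccaaacgGCGCAGGCGCaggagcaaga
DENND2B, chr11:8797681-8797710: acgcacgtgcGCGCACGCGCgcgcgcgcac
DUSP9, chrX:152908180-152908209: cacgaagccgGCGCACGCGCccctacgaca
FBXL7, chr5:15927999-15928028: actccgacctGAGCATGCGCacactgagca
CPXM1, chr20:2780775-2780804: ctgtgtgtgcGCGCACGCGCgtgtgagtgt
GRIN2B, chr12:14133841-14133870: cgcccccgacGCGCACGCGCcccgcgcgca
C1QTNF4, chr11:47611798-47611827: ccaccaagctGCGCGTGCGCgccgccgaga
ZNF391, chr6:27356482-27356511: tggctctcagGCGCAAGCGCagagctgcga
TUSC1, chr9:25678286-25678315: tggcgccaccACGCATGCGCcacatcggtc
ARHGEF33, chr2:39187522-39187551: ggaggcggcgGCGCAGGCGCacggcaaggc
CHST2, chr3:142839445-142839474: ggagattgggGCGCATCCGCtcactccgct
KCNV2, chr9:2718393-2718422: cgagctgcgcGCGCAGGCGCaggtcgagga
The peak at PLEC also held a match and is named only. The match lay downstream of the nearest coding start in 11 of the 14 peaks and upstream in 3. The exact match lay 23 bases downstream of the start of SLC7A10, an amino acid transporter gene, in a peak with a −log10 q of 1.91. The genes of 11 of these 14 peaks kept no promoter peak in siAATF, whereas DENND2B, CHST2 and PLEC kept one. Over all 451 members the genes of 289 peaks (64.1%) kept none, and a difference between these shares was not tested.

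The siControl-only promoter peaks were weak by every measure in the list, which is given as a description only, since the calls that chose them rest on the same values. Fold enrichment, the signal of a peak over the local background of its own library, lay between 1.72 and 8.33 with a median of 3.75. The −log10 q, the significance given by the peak caller, lay between 1.05 and 10.98 with a median of 2.23. It was under 2 in 173 peaks, under 3 in 343 and 5 or more in 7. The median width was 312 bp, and 68 peaks had the minimum width of 200 bp. Ranked by fold enrichment among all siControl peaks, from 0 for the weakest to 100, the members had a median rank of 12.01 and only 3 lay above 50.

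Among siControl promoter peaks, the share without a siAATF counterpart fell from 59.6% (49.0 to 69.6%) at a −log10 q of 1 to 1.5 to 47.6% (41.2 to 54.0%) at 1.5 to 2 and 26.4% (23.0 to 29.9%) at 2 to 3. It was 8.05% (6.61 to 9.70%) at 3 to 5, 0.291% at 5 to 10, or 6 of 2059 peaks, and 0.0135% at 10 or more, or 1 of 7392 peaks. The siAATF list behaved alike when read the other way. 403 of 11643 siAATF promoter peaks (3.46%) overlapped no siControl peak, with shares of 48.9%, 41.9%, 23.9%, 7.73%, 0.545% and 0% in the same bins of −log10 q. Their median fold enrichment of 3.68 and median −log10 q of 2.27 were near those of the siControl-only peaks, each on the scale of its own library. Away from coding promoters 1561 of 6160 siControl peaks (25.3%) had no siAATF counterpart. The read depth of the libraries was not part of the lists, so that a difference in depth and the depletion of AATF cannot be told apart as sources of a missing call.

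**Figure D1:**
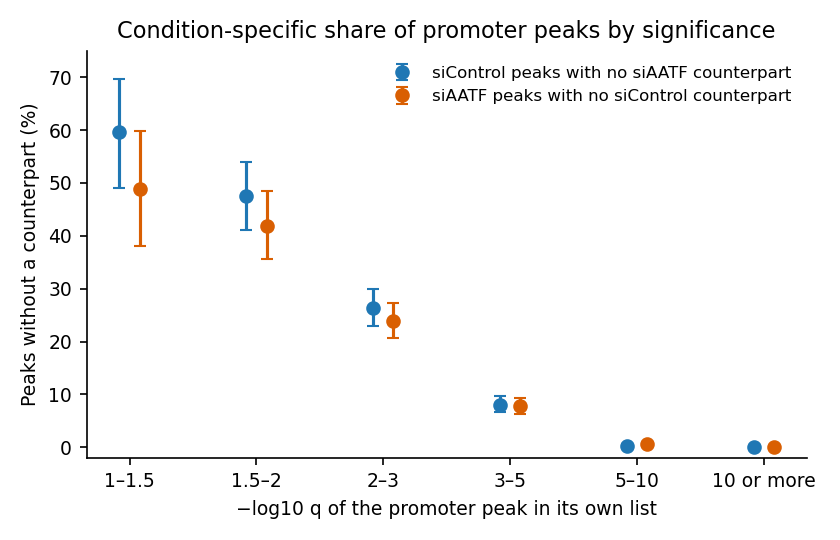
Share of promoter peaks without a counterpart in the other list (y axis, percent) by bin of −log10 q in the peak's own list (x axis), for siControl peaks (blue) and siAATF peaks (orange), with exact 95% binomial intervals. The share falls from 59.6% to 0.0135% in siControl and from 48.9% to 0% in siAATF, and the intervals of the lists overlap in every bin.

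**Figure D2:**
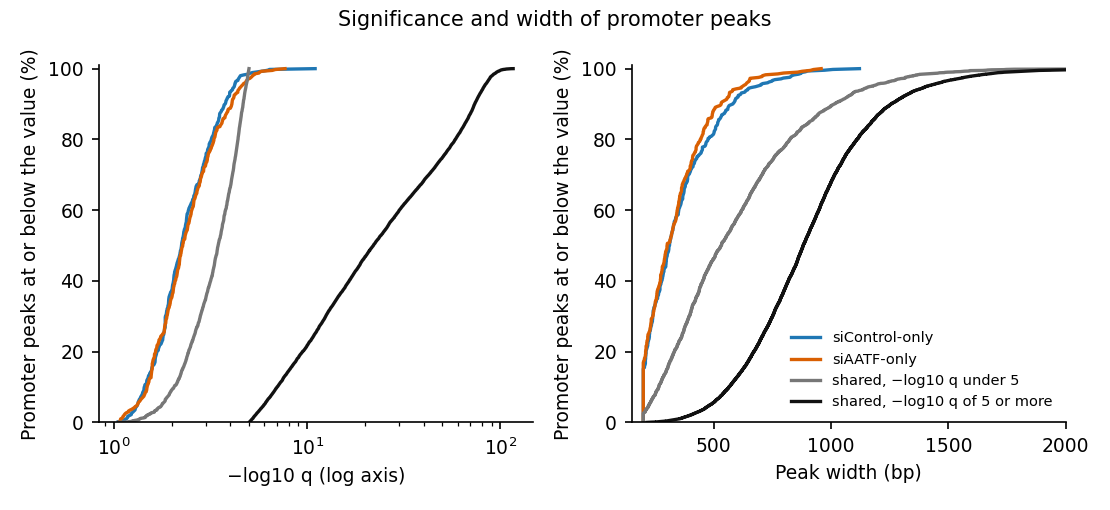
Cumulative distribution of −log10 q (left, log axis) and of peak width in bp (right, with the axis ending at 2 kb) for siControl-only, siAATF-only and shared promoter peaks, with the shared siControl peaks split at a −log10 q of 5. The curves of siControl-only and siAATF-only peaks lie close together, with median widths of 312 and 302 bp against 533 and 882 bp for the weaker and stronger shared peaks.

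A peak without a counterpart was often far from any siAATF call, although some lay beside one. The median gap to the nearest siAATF peak was 20765 bp. The gap was at most 100 bp for 7 peaks, at most 500 bp for 37 and at most 1 kb for 66, or 14.6% (11.5 to 18.2%). The closest were LTV1, a ribosome assembly factor gene, at 3 bases, PPIL1, a spliceosome gene, at 23 bases and RFX4, a transcription factor gene of the developing brain, at 25 bases. On the other side of the rule, PRICKLE3 overlapped a siAATF peak by 10 bases, and ZNF267 and COL8A1 by 11 bases each, and were counted as shared. At the edge of the promoter window, the peaks at TRIB3, FLII and P2RX5 lay 994, 992 and 983 bases from the nearest coding start. Those near BCKDHA, DENND2B and ADRA2C, at 1006, 1015 and 1024 bases, fell outside it, the one near DENND2B being a different peak from the member at that gene.

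The strongest members were few and belonged to genes of unlike function. The highest −log10 q, 10.98 with a fold enrichment of 8.33, was reached at chr7:65112374-65112724, in a coding exon of AC104057.1, a gene model that carries only a clone name. The peak began 556 bases from the nearest coding start. No other member had a −log10 q above 10. At CYP2R1, which encodes a vitamin D 25-hydroxylase of the liver, the peak at chr11:14913165-14913626 covered a coding start with a −log10 q of 6.38 and a fold enrichment of 6.10. TTC29, a gene of the sperm flagellum, had a −log10 q of 5.93 and a fold enrichment of 5.96 at chr4:147866898-147867127. At LAMA2, which encodes a laminin chain of muscle and nerve basement membranes, the values were 5.20 and 5.56 at chr6:129204184-129204458. These 4 genes kept no siAATF promoter peak, and the nearest siAATF call was 102936 bp away or more.

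The other 3 of the 7 strongest members belonged to genes that kept a promoter peak elsewhere. At EBF1, a transcription factor gene of B cells and neurons, the siControl-only peak had a −log10 q of 6.25 and a fold enrichment of 4.11 and lay 549 bases from a siAATF peak with a −log10 q of 24.1. At CARS2, the mitochondrial cysteinyl-tRNA synthetase gene, the peak at chr13:111329278-111329492 covered an alternative start with a −log10 q of 5.04 and a fold enrichment of 5.48. A shared peak 28744 bp away, at the canonical start (that of the transcript the annotation marks as canonical), had a −log10 q of 19.8 in siAATF. COL12A1, a collagen gene, showed the opposite order. Its siControl-only peak covered the canonical start at chr6:75915548-75916014 with a −log10 q of 5.56, and the peak it kept was a siAATF-only call 3574 bp away with a −log10 q of 2.16. Next in order came STUM (4.94), which kept none, and BCOR (4.68), a corepressor gene, and ETV4 (4.51), an ETS factor gene, which both kept a shared peak.

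The position of the peaks relative to gene starts was not named in the overlap rule, apart from the 1 kb window, but the rule picks weak and narrow peaks, so these shares are given as a description. A coding start lay within 221 of the 451 siControl-only peaks, or 49.0% (44.3 to 53.7%), against 57.3% (52.3 to 62.2%) of siAATF-only promoter peaks, 79.4% of shared siControl promoter peaks with a −log10 q under 5 and 95.3% of the stronger shared ones. The canonical start lay within 31.5% (27.2 to 36.0%), 39.0% (34.2 to 43.9%), 66.0% and 87.4%, in the same order. Condition-specific peaks of both lists thus covered a start less often than shared peaks of low significance. The shared groups were also wider, with median widths of 533 and 882 bp, whereas the siControl-only peaks, at 312 bp, were no narrower than the siAATF-only peaks, at 302 bp. The part of width in the difference from shared peaks was not tested.

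Of the siControl-only peaks, 63.2% (58.6 to 67.7%) had their midpoint downstream of the nearest coding start. This share was 46.9% (41.9 to 51.9%) in siAATF-only peaks and 57.1% (54.8 to 59.4%) in the weaker shared peaks, and the intervals of the 2 condition-specific groups did not overlap. A coding exon held the midpoint of 86 siControl-only peaks, or 19.1% (15.5 to 23.0%), against 6.95% (4.67 to 9.89%) of siAATF-only peaks, 12.4% of weaker shared and 10.7% of stronger shared peaks. The order was kept at each level of significance. The coding-exon share was 21.4%, 17.6% and 15.8% in siControl-only peaks with a −log10 q of 1 to 2, 2 to 3 and 3 to 5, and 9.72%, 5.92% and 5.26% in siAATF-only peaks. The intervals overlapped at 1 to 2 (15.5 to 28.3% against 5.42 to 15.8%) and at 3 to 5 (9.33 to 24.4% against 1.73 to 11.9%). They did not at 2 to 3 (12.2 to 24.2% against 2.74 to 10.9%). Conversely, the midpoint lay in no coding gene in the case of 12.4% (9.52 to 15.8%) of siControl-only peaks, against 23.1% (19.1 to 27.5%) in the siAATF-only group. Members in coding exons included EBF1, MTARC1, RDH5 and one of the pair at KCNK12. These shares compare 1 library with another, and whether they would recur in further libraries was not tested.

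**Figure D3:**
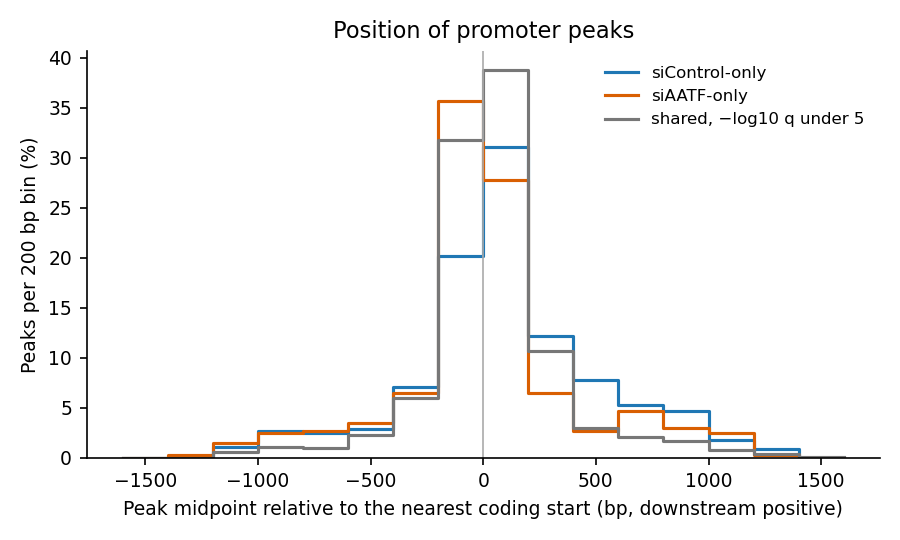
Position of the peak midpoint relative to the nearest coding start (x axis, bp, downstream positive) as the percentage of peaks per 200 bp bin (y axis) for siControl-only, siAATF-only and weaker shared promoter peaks. In the 200 bp upstream of the start lie 20.2% of siControl-only peaks and 35.7% of the siAATF-only ones, and between 200 and 400 bp downstream lie 12.2% and 6.45%.

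Base composition differed between the groups too. In the central 200 bases the median GC content was 67.5% (quartiles 61.5 and 74.0%) in siControl-only peaks and 63.0% (57.0 and 69.5%) in siAATF-only peaks. It was 68.0% in the weaker and 72.0% in the stronger shared peaks, and 66.5% in the 200 bases around all 19478 canonical coding starts. At a −log10 q of 1 to 2, 2 to 3 and 3 to 5 the medians were 69.0%, 68.25% and 65.5% in siControl-only peaks against 63.5%, 63.0% and 63.0% in siAATF-only peaks. In weaker shared peaks they were 66.5%, 67.0% and 68.5%, so the order of siControl-only and shared peaks differed between the bins. A CpG-rich window, with at least 50% GC and at least 0.6 of the CpG steps that its base composition predicts, was found in 68.5% (64.0 to 72.8%) of siControl-only peaks. This share was 56.3% (51.3 to 61.2%) in siAATF-only peaks, 80.4% in weaker shared peaks, 94.0% in stronger shared peaks and 68.5% around all canonical starts. The median ratio of CpG steps observed to those predicted was 0.756 in siControl-only, 0.664 in siAATF-only, 0.821 in weaker shared and 0.914 in stronger shared peaks, and 0.821 around all canonical starts. By both CpG measures, not split by significance, the siControl-only peaks lay below shared peaks and above siAATF-only peaks. By the ratio they also lay below all canonical starts. The downstream share was also higher in siControl-only than in siAATF-only peaks, and its part in that difference was not tested. Over the shared peaks the downstream share was 57.1% (54.8 to 59.4%) in the weaker and 51.4% (50.3 to 52.4%) in the stronger ones.

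**Figure D4:**
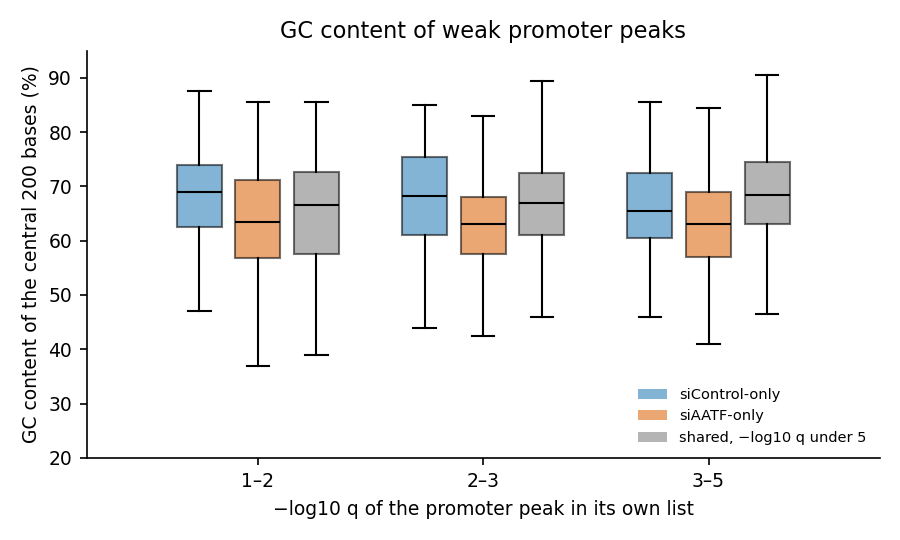
GC content of the central 200 bases (y axis, percent) of siControl-only, siAATF-only and weaker shared promoter peaks by bin of −log10 q (x axis). Boxes span the quartiles with the median as a line, and whiskers reach the last value within 1.5 box lengths. The siControl-only medians of 69.0%, 68.25% and 65.5% lie above the siAATF-only medians of 63.5%, 63.0% and 63.0%. The weaker shared medians are 66.5%, 67.0% and 68.5%.

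Short sequence words were counted on both strands in the same 200 bases, so that peak width did not enter. With up to 1 mismatch, the NRF-1 core occurred in 6 siControl-only peaks, or 1.33% (0.490 to 2.87%), in 0.496% of siAATF-only peaks, in 0.669% of weaker shared peaks and in 18.3% of stronger shared peaks. Around all canonical starts it was present in 7.77%. A control palindrome with the inner letters GGCATGCC, C before and G after them, was present with up to 1 mismatch in 0.222% of siControl-only peaks and 0.775% of canonical starts. The shorter NRF-1 word TGCGCA, which overlaps the core, was present in 4.43%, 3.72%, 3.73% and 16.7% of the 4 groups of peaks and in 7.60% of canonical starts. In these 200 bases the members thus carried NRF-1 words less often than strong shared peaks and at shares whose intervals overlapped those of siAATF-only and weaker shared peaks. Over the whole peak the core with up to 1 mismatch was in 3.10% (1.71 to 5.15%) of siControl-only peaks, 0.496% (0.0602 to 1.78%) of the siAATF-only group and 26.3% of stronger shared peaks. In weaker shared peaks it was in 1.06% (0.638 to 1.65%), an interval that did not overlap that of the members although these peaks were wider. The share of the members rests on 14 peaks. Over the whole peak the word TGCGCA went the other way, with overlapping intervals. It was in 6.87% (4.72 to 9.61%) of the members and 9.69% (8.36 to 11.2%) of weaker shared peaks. A word is a match of letters and not a bound site, and its absence from a window says nothing of the factor.

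Words of other promoter factors were counted in the same way. The Sp1 box GGGCGG was present in 45.0% (40.4 to 49.7%) of siControl-only, 45.2% of siAATF-only, 56.3% of weaker shared and 68.3% of stronger shared peaks, and in 54.1% of canonical starts. The ETS word CCGGAAG was present in 5.32% (3.44 to 7.81%), 7.44%, 10.8%, 11.1% and 11.3%, in that order. The YY1 word AAGATGGCG was present in 0.665% (0.137 to 1.93%), 2.98%, 2.62%, 2.48% and 2.72%. The CRE word TGACGTCA was present in 1.11%, 0.993%, 1.39%, 1.75% and 2.03%. The AP-1 word TGANTCA, in which N is any base, was present in 2.88% (1.54 to 4.88%) of siControl-only peaks, in 8.44% (5.91 to 11.6%) of the siAATF-only group, against 4.23%, 1.46% and 3.05% in weaker shared peaks, stronger shared peaks and canonical starts. The intervals of the AP-1 word in the condition-specific groups did not overlap, and those of the Sp1 box were nearly the same.

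Whether a gene kept another promoter peak after AATF depletion was asked for each of the 485 genes. A siAATF peak within 1 kb of any of their coding starts was present for 170 genes, or 35.1% (30.8 to 39.5%), and absent for 315, or 64.9% (60.5 to 69.2%). The share of genes that kept a peak depended on the definitions, at 17.9% with canonical starts alone, 17.0% with a −log10 q of at least 5 asked of both lists and 65.7% with a reciprocal overlap of at least 50%. Of all coding genes 60.8% had a siAATF promoter peak. Seen by peak, 146 members belonged only to genes that kept one, 289 only to genes that kept none, and 16 lay between a gene that kept one and another that did not. The 315 genes are nearly all of the 321 that had a promoter peak in siControl and none in siAATF (2.65% of 12094). The remaining 6 had no siControl-only promoter peak. Their siControl promoter peaks all overlapped siAATF peaks that lay outside the 1 kb windows of the gene. Conversely, 232 genes had a promoter peak in siAATF alone (1.93% of 12005). Among the 422 genes with a siAATF-only promoter peak (2.14% of coding genes), 194 had a siControl promoter peak, or 46.0% (41.1 to 50.9%).

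For 148 of the 170 genes the kept peak was shared between the lists, and for 22 only siAATF-only peaks remained. The strongest kept peak per gene had a median −log10 q of 9.06 in the siAATF list (quartiles 3.95 and 21.1, range 1.39 to 72.3), and it was 5 or more in 119 genes. It exceeded the −log10 q of the lost peak in its own list in 143 of the 148 genes with a shared peak and in 6 of the 22 with siAATF-only peaks. The lost peaks were weak by the rule that chose them, and the kept value is the highest of its gene. These counts are therefore a description only. The median gap between the siControl-only peak and the nearest kept peak was 1400.5 bp. The kept peak lay within 1 kb in 73 genes and over 10 kb away in 54. At HHIP, a hedgehog inhibitor gene, it was 244 bp away, with values of 3.70 and 4.46.

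**Figure D5:**
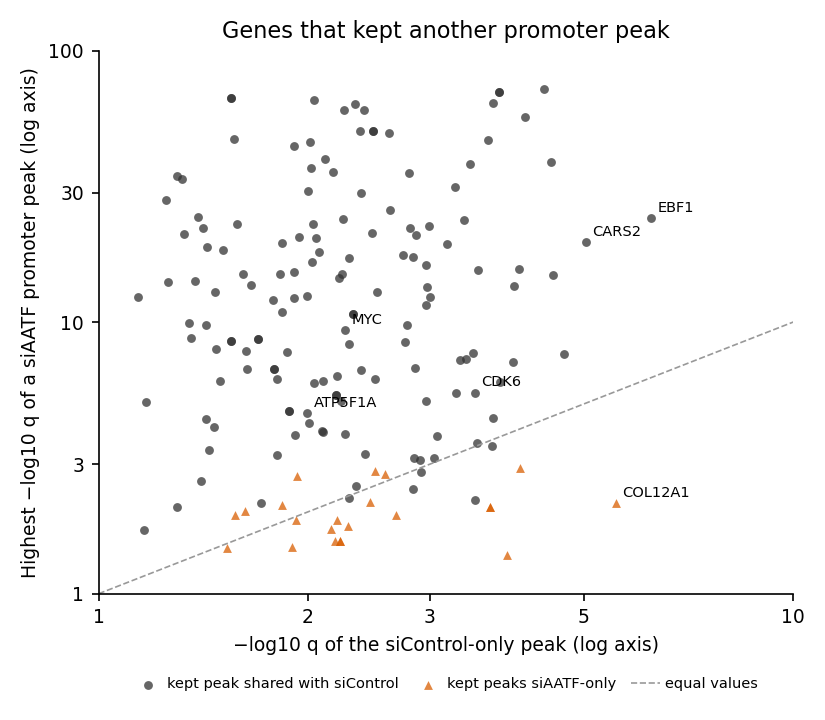
Genes that kept a siAATF promoter peak, with the −log10 q of the siControl-only peak in the siControl list (x axis, log) against the highest −log10 q of a siAATF promoter peak of the same gene (y axis, log). Circles mark the 148 genes whose kept peak was shared with siControl and triangles the 22 with siAATF-only peaks, and the dashed line marks equal values. 149 of the 170 genes lie above the line, and COL12A1 lies below it at 5.56 and 2.16. The lost peaks are weak by the rule that chose them, so the count above the line is a description only.

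In genes that kept a peak, the siControl-only peak more often lay away from the canonical start. It covered that start in 17 of the 170 (10%, with an interval of 5.93 to 15.5%), and in 131 of the 315 genes that kept none, or 41.6% (36.1 to 47.2%). It lay within 1 kb of the canonical start in 80 of the 170, or 47.1% (39.4 to 54.9%), and in 272 of the 315, or 86.3% (82.1 to 89.9%). A kept siAATF peak covered the canonical start in 105 of the 170, or 61.8% (54.0 to 69.1%). By the rule, a siControl-only peak over the canonical start excludes a siAATF peak over that start. Such a gene could keep only a peak that did not cover it, so these shares are a description only. The number of distinct coding starts also differed, with a median of 6 in genes that kept a peak and 3 in genes that kept none. A gene with more starts has more windows in which a peak counts. The strength of the lost peak did not separate the genes, with a median −log10 q of 2.23 in both sets. Of the 315 genes, 50 had a siAATF peak elsewhere within the gene.

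Of the 7 genes with the most significant lost peaks among those that kept one, EBF1, COL12A1, CARS2, BCOR and ETV4 are described above. At KANSL1, a histone acetyltransferase complex gene, the lost peak had a −log10 q of 4.49 and the shared peak at the canonical start, 30489 bp away, 38.8. At KIAA1671 the values were 4.38 and 72.3, the latter the highest kept peak of all. The 22 genes left with siAATF-only peaks were AHSA1, COL12A1, DMPK, FGF1, GRAMD1B, IFI30, KCNK12, KCNN3, LRRC2, LTV1, LY75, LY75-CD302, NPTX1, PPIL1, PTPRM, RPS14, SLC12A5, TJP3, VIPAS39, ZNF442, ZNF613 and ZNHIT2. In these the kept call had a median −log10 q of 1.95 and a range of 1.39 to 2.90. It exceeded the lost one in only 6 of the 22 genes. At PTPRM, a receptor phosphatase gene, a siControl-only peak with a −log10 q of 4.04 lay 75 bp from a siAATF-only peak of 2.90 that covered the canonical start.

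Most of the genes that kept a shared promoter peak are named here, in alphabetical order. Under A to B they were ABR, ABT1, ACTG1, ACYP1, ADAMTSL1, AHNAK, ARHGEF1, ASS1, ASTN2, ATP5F1A, ATXN7L1, BAIAP3, BBIP1, BBX, BCL2L2, BCL9L, BCOR, BEGAIN and BNC2. Under C they were C1QTNF1, C5orf22, CAMK1D, CAPN12, CAPN2, CAPRIN2, CARS2, CDC25A, CDC37, CDK6, CES2, CH25H, CHST2, CIAO2B, CKAP5, CNKSR3, CNOT3, CPEB1, CRAMP1, CTBP2 and CUL4B. Under D to F they were DAPK1, DENND2B, DNAJB11, DROSHA, EBF1, EFHD1, EFNA3, EGLN1, ENSG00000288529, EPHA4, ERBB2, ESCO2, ETHE1, ETV4, FBN2, FLII and FOXN3. Under G to K they were GCA, GNB2, H3C2, HES4, HHIP, HOXC9, HR, ID4, IQSEC2, ITPRIP, KALRN, KANSL1, KHDC1, KIAA1671, KLHL21 and KMT2D. Under L to N they were LHX4, LIAS, LRP8, LYPD5, MAD1L1, MAST1, MFSD1, MYC, NDRG2, NHSL1, NLRC5, NOG, NPLOC4 and NPR3. Under O to R they were PALM, PCDHGC3, PDE4A, PES1, PLEC, PLEKHA6, POMZP3, PPP3R1, PRDM15, PRKCH, PRKCZ, RAI14, RAP1GAP, RBFOX2, RFX4, RIMS2, RPH3AL, RPL9 and RRP12. Under S to Z they were SBNO2, SCHIP1, SEPTIN9, SF3B5, SHOC2, SLC1A5, SLC20A2, SLC25A22, SLC25A25, SLC27A6, SLC37A3, SLC48A1, SMAD3, SMIM5, SS18L1, STAG2, STPG1, TBCCD1, TBPL1, TCIRG1, TEX2, TGIF1, TNPO2, TNRC18, TNRC6B, TPM4, TRIB3, TRIM8, TSHZ2, TTBK1, WDR74, ZBTB5, ZC2HC1C, ZNF423, ZNF462, ZNF575, ZNF646 and ZNF668.

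By known function, the genes that lost a promoter peak were mixed. 147 of the 485 genes were placed in 10 groups by general knowledge after their names had been seen, so the counts describe these genes and are no evidence of a theme. In the 10 groups together 54 genes kept a promoter peak and 93 did not. Each group holds 9 to 28 genes, and its share is to be read beside the 35.1% of all 485 genes that kept one.

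Among 24 genes for receptors, channels and transporters of excitable cells, 5 kept a promoter peak (20.8%) and 19 did not. CHRNA7, the nicotinic receptor alpha-7 subunit gene, had a siControl-only peak over its canonical start with a −log10 q of 4.37 and a fold enrichment of 5.16. RYR2, the calcium release channel gene of heart muscle, followed with 3.53, and OPRD1, the delta opioid receptor gene, with 3.48. GRIN2B, an NMDA receptor subunit gene, had 2.93, with the core match shown above 680 bases downstream of the start. None of these 4 kept a promoter peak. KCNK12, a potassium channel gene, had 2 siControl-only peaks, with a −log10 q of 3.88 and 1.66, and kept a siAATF-only peak of 1.39 over its canonical start, 545 and 407 bp from them. Over the whole family of 94 potassium channel genes, 36 had a siControl promoter peak, 8 had a siControl-only one and 2 of these kept another, KCNK12 and KCNN3. The 8 genes are 8.51% of the family, against 2.45% of all coding genes, and 7 genes of the family had a siAATF-only promoter peak, against 2.14%. Of the 36 with a siControl promoter peak the 8 are 22.2%, against 4.01% of all coding genes with one. KCNJ12, KCND3, KCNN4, KCNH6, KCNJ14 and KCNV2 kept none.

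Of 16 synapse and neurite genes 8 kept a peak, among them RIMS2 and EPHA4. GAP43, a growth cone gene, and CAMK2B, a synaptic kinase gene, had siControl-only peaks over their canonical starts with a −log10 q of 2.23 and 2.36 and kept none.

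Among 11 genes of glial progenitors and glioma, 5 kept a promoter peak and 6 did not. AQP4, the water channel gene of astrocyte end-feet, had a siControl-only peak at chr18:24443118-24443496 with a −log10 q of 4.40. NES, which encodes the intermediate filament nestin, had 4.10 at its canonical start. PDGFRA, a receptor tyrosine kinase gene amplified in some gliomas, had 2.28, and CSPG4, a proteoglycan gene of oligodendrocyte progenitors, had 2.00. These genes and CCND2 (2.55), the cyclin D2 gene, and PTN (1.84), a growth factor gene, had no siAATF promoter peak. Outside the promoter windows, a siAATF peak did lie within CSPG4 and within CCND2. CDK6, a kinase gene of the G1 phase, lost a peak of 3.49 and kept one of 5.51 at the canonical start, 468 bp away. STAG2, a cohesin gene, lost 2.85 and kept 6.77. ERBB2, a receptor kinase gene, lost 2.01 and kept 30.5, and ID4, a transcriptional inhibitor gene of neural progenitors, lost 2.04 and kept 23.0, 635 bp away. Of 24 glioblastoma driver genes, 21 had a siControl promoter peak and CDK6, STAG2 and PDGFRA had a siControl-only one. They are 12.5% of the list, against 2.45% of all coding genes. Of the 21 they are 14.3%, against 4.01% of all coding genes with a siControl promoter peak. Of 44 genes of the cell cycle and DNA replication, CDK6 and CCND2 had a siControl-only one, or 4.55% against 2.45%. Of the 41 with a siControl promoter peak they are 4.88%, against 4.01%. In each of the driver and cell cycle lists, 1 gene had a siAATF-only promoter peak.

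Genes for mitochondrial proteins, among which the known targets of NRF-1 are found, were represented by 16 genes, of which 7 kept a promoter peak. MPV17 had the most significant siControl-only peak of those that kept none, with a −log10 q of 4.46 at its canonical start, and a siAATF peak 1398 bp away lay outside its promoter windows but within the gene. MTARC1, a molybdenum enzyme gene of the outer membrane, had 4.25. AARS2, the mitochondrial alanyl-tRNA synthetase gene, had 2.83 and HCCS, which attaches haem to cytochrome c, had 1.84, both over the canonical start. LIAS, the lipoic acid synthase gene, kept a peak 501 bp away with a −log10 q of 4.71 against 1.88 for the lost one.

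The members on the lists of mitochondrial genes are counts of 0 to 2, to be read against the 2.45% over all coding genes. Over coding genes with a siControl promoter peak the share was 4.01%. Of 79 subunit genes of the oxidative phosphorylation complexes, 74 had a promoter peak in each list, and ATP5F1A, the alpha subunit gene of ATP synthase, was the only 1 with a siControl-only peak. That peak, at chr18:43684168-43684669, had a −log10 q of 2.00 and covered alternative starts of ATP5F1A and the canonical start of HAUS1, a mitotic spindle gene on the other strand. ATP5F1A kept the peak at its canonical start, 5811 bp away, with a −log10 q of 4.62 in siAATF, whereas HAUS1 kept none. MRPL27 was the only 1 of 78 mitochondrial ribosomal protein genes, with a −log10 q of 3.29 in a peak that it shares with EME1, a DNA repair nuclease gene, and both kept none. There were 0 siControl-only promoter peaks at the 12 genes for transcription and replication of mitochondrial DNA, the 19 genes of the TCA cycle and the 17 glycolysis genes. Of the 48 SLC25 carrier genes, SLC25A22 and SLC25A25 had one (4.17%) and kept another peak, with a −log10 q of 7.70 and 14.2.

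In ribosome, ribosome assembly and translation genes 7 of 12 kept a peak (58.3%), and in RNA processing genes 6 of 9 (66.7%). Of 84 cytosolic ribosomal protein genes 4 had a siControl-only promoter peak, or 4.76% against 2.45% of all coding genes. A siAATF-only promoter peak was present at 3 of the 84. RPL23, with a −log10 q of 2.76 over its canonical start, and RPL37, with 1.93, kept none. RPL9 kept the peak that it shares with LIAS, and RPS14 kept a siAATF-only peak of 2.17 over its canonical start, 421 bp from the lost peak of 2.46. WDR74, a ribosome assembly gene, lost a peak of 2.78 and kept one of 9.76. RBFOX2, a splicing regulator gene, lost 3.70 and kept 64.1 at the canonical start, 66432 bp away, and DROSHA, the nuclease gene of microRNA processing, lost 2.19 and kept 5.40, 466 bp away.

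Of 28 developmental transcription factor genes 7 kept a promoter peak (25.0%). BCL11B, a zinc finger gene of T cells and neurons, had the most significant lost peak without a kept one, with a −log10 q of 4.22 and a fold enrichment of 4.49 at its canonical start. POU3F3 (3.29), a POU domain gene of the forebrain, PPARG (2.42), a nuclear receptor gene of fat cells, and PAX2 (1.28), a paired box gene of kidney and hindbrain, kept none either. A siControl-only peak with a −log10 q of 1.49 lay within 1 kb of alternative starts of both HOXC6 and HOXC9, and HOXC9 alone kept a promoter peak, with 6.07. Of 562 zinc finger genes 15 had a siControl-only promoter peak (2.67%, against 2.45% of all coding genes), and 7 of them kept another. ZNF16 (3.51) and ZSCAN18 (3.31) had the most significant ones and kept none. A siAATF-only promoter peak was present at 18 of the 562 genes.

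Smaller sets showed the same mixture. Of 11 extracellular matrix genes 3 kept a peak, namely COL12A1, ADAMTSL1 and FBN2. Of 11 immunity genes 2 did, NLRC5 and IFI30, while MLKL, the effector gene of necroptosis, had a lost peak of 3.84 over its canonical start and IL4, a cytokine gene, one of 3.67. Of 10 genes of DNA repair and cell division 5 kept a peak, among them ESCO2, CKAP5 and CDC25A. EXO5, an exonuclease gene, had the most significant lost peak of those that did not, with a −log10 q of 4.25. Of 373 solute carrier genes 16 had a siControl-only promoter peak (4.29%, against 2.45% of all coding genes), and 8 of them kept another. SLC12A8 had the highest value, 3.87. Of the 211 with a siControl promoter peak the 16 are 7.58%, against 4.01% of all coding genes with one. A siAATF-only promoter peak was present at 8 of the 373. There were 0 siControl-only promoter peaks at the 14 AP-1 factor genes and the 32 germline genes. Of these, 11 and 4 genes had any siControl promoter peak. Cell type markers were mostly without any siControl promoter peak and could then have no siControl-only one. Such a peak was present at 6 of 7 neuron, 3 of 5 astrocyte, 1 of 6 oligodendrocyte, 0 of 5 microglia and 0 of 3 endothelium markers, and the only siControl-only one was that at AQP4, an astrocyte marker.

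Ranked by the −log10 q of a siControl-only peak over the canonical start, the 10 highest genes without a kept peak were TTC29, LAMA2, STUM, MPV17, ARMCX3 (4.43), CHRNA7, EXO5, MTARC1, BCL11B and EFCAB13 (4.21). 2 or more siControl-only promoter peaks were found at 6 genes. FAM83H and WASHC1 kept none, GRAMD1B and KCNK12 kept a siAATF-only peak, and SLC1A5, a glutamine transporter gene, and TNRC18 kept a shared peak, with a −log10 q of 3.94 and 11.6. USP17L17, TBC1D3, TBC1D3L, FAM27A, CLEC18B, CLEC18C and WASHC1, which all kept none, belong to families with near-identical copies, in which the placement of reads is uncertain. By chromosome, the siControl-only share of promoter peaks was highest on chromosome 17, at 6.23% (4.58 to 8.25%, 45 of 722), and lowest on chromosome 10, at 2.22% (1.07 to 4.04%, 10 of 451), with 3.86% over all.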

How the data were processed

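Per the labels and the study's methods, reads were aligned with Bowtie2 to hg19 and broad peaks were called with MACS2 in an ATAC-seq pipeline run with its default settings, and no input library was named. The fold enrichment of each peak over its local background, a ratio, and its −log10 p and −log10 q were deposited by the authors on the scale of each library, and the display score that the authors deposited was a multiple of the −log10 q and was not used. The −log10 p served no comparison. Read counts were not in the lists, so depth is unknown.

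Peaks were intersected with Python 3.11.15, numpy 2.4.6, pandas 2.3.3 and scipy 1.17.1, sequence was read with pyfaidx 0.9.0.4 from GRCh37, which is hg19 for these chromosomes, and coordinates are 1-based. Overlap, gap and word searches were checked on simulated intervals and sequences with known answers. The members and the gene lists were chosen with earlier results of these data known. Genes were named by rule: the 10 most significant and 5 most enriched members, holders of the core, up to 4 genes per list, the 10 most significant genes with the canonical start lost, the 5 most significant that kept a peak, members at the edges of the rule, and genes with repeated members. Genes of the functional groups were chosen after their values were seen. 10 alternatives were tried. Some genes are counted but not reported by name here.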

Additional observations from a re-analysis of the deposited data

How the results depend on the processing

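With 1 list per condition, a missing call cannot be told from one just under the threshold of the other library, and depth is unknown. No paired analysis was possible because each condition has 1 list and no test was made. Of 72 values under 10 alternatives for 10 results, 39 stayed within their interval, or within 1.5 times for a number, and 33 moved. With a −log10 q of at least 5 asked of the siControl list alone, 7 peaks at 7 genes remained, 0.0741% of promoter peaks, with 42.9% of genes keeping a peak, a median rank of 20.7, a median width of 275 bp, a midpoint downstream in 57.1% and the exact core in 0%. Asked of both lists, it gave a share of 4.67%, 17.0% of genes keeping a peak, 89.8% of peaks at a canonical start, a median rank of 18.3, a median width of 570 bp, a midpoint downstream in 58.5% and a median GC content of 71.0%, since strong siControl peaks with a weak siAATF counterpart then count as lost. A reciprocal overlap of at least 50% gave 898 peaks (7.68%) at 918 genes, 65.7% of them keeping a peak, 78.0% at a canonical start, a median rank of 15.5 and a median width of 373.5 bp. Treating peaks within 500 bp of each other as shared lowered the keeping share to 29.1%. Windows of 500 bp and 2 kb gave shares of 3.35% and 4.30%, with 28.9% and 41.8% of genes keeping a peak, and canonical starts alone gave 3.14% and 17.9%, with a midpoint downstream in 68.8%. Ranking by −log10 q gave a median rank of 9.35, and 1 mismatch in the core a share of 3.10%. Counting a siAATF peak from 5 kb before a gene to its end, 47.8% of genes kept one. The downstream share and GC content were added to the alternatives after the data had been seen.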
